A study of Mus musculus with 36 samples.

Results

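Livers of mice given carbon tetrachloride (CCl4) for 12 months were compared with livers of mice given it for 6 months, over all genes with enough counts to test. The libraries were chosen by title, 6 of month 12 CCl4 and 6 of month 6 CCl4, which makes 12 of the 36 libraries of the study. All animals were male C57BL/6N mice, 8 to 10 weeks old when treatment began. Both groups were injected intraperitoneally, 2 times per week, with CCl4 at 1 g/kg dissolved in olive oil, and sampling followed the final injection by 6 days. Olive oil alone was given for 2 or 12 months, and a further group of month 0, with control in its title and olive oil as its treatment label, completed the series. No oil group of month 6 was analysed here, so duration of CCl4 and age differ together between the groups compared. Total RNA of whole liver was depleted of ribosomal RNA and sequenced as stranded paired-end libraries. Each library is called a mouse below. The labels do not say that every library came from a separate animal, so p-values measure the spread between these samples.

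CCl4 is a hepatotoxin that cytochrome P450 enzymes, chiefly Cyp2e1 of the hepatocytes around the central vein, convert to radicals. Repeated injury and repair lead to scarring by activated stellate cells and, over long exposure, to hepatocellular tumours in mice. Livers of male rodents normally express sex-biased genes under pulsed growth hormone, through STAT5 and its partner factors. The NRF2 pathway switches on genes of glutathione and quinone metabolism under oxidative or electrophilic stress, and fetal liver genes such as Afp, silent in the adult, can return in regenerating or transformed hepatocytes. In whole liver, fewer cells of a type and less RNA per cell of that type cannot be told apart.

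The 12 libraries held 19403247 to 27323706 counts at month 6 and 21812315 to 26237784 at month 12, and 15338 of 32544 gene symbols were tested. Levels are counts scaled to library size and composition (CPM). Month 6 replicate 2 had the highest mesothelial, neutrophil and macrophage marker levels of its group, and month 12 replicates 2 and 6 correlated least with their group mates, so results that change without these 3 are given both ways. Pancreas transcripts summed to 11.7 to 14834.6 CPM at month 6 and to 49.1 to 6022.4 CPM at month 12 and were highest in replicates 1 and 2 of month 6 and replicates 1 and 3 of month 12. Clock genes also differed among the month 6 mice, with Arntl, a core clock activator, at 13.2 to 22.5 CPM in replicates 1 to 3 and 1.67 to 1.93 CPM in replicates 4 to 6, and Dbp, a clock output gene, at 1.95 to 36.2 CPM and 91.7 to 106.3 CPM. At month 12 they ranged over 4.69 to 14.2 CPM and 3.19 to 42.6 CPM. The part of this difference in the other results was not tested.

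At month 12, 6007 genes differed from month 6 (39.2% of those tested), 3160 of them higher (20.6%) and 2847 lower (18.6%), by edgeR's quasi-likelihood test with Benjamini-Hochberg adjustment. A gene is called higher or lower, or said to rise or fall, at an adjusted p under 0.05. Of these genes, 1089 rose and 384 fell by at least 2-fold. The 12 mice separated without overlap in 2227 genes (14.5%), 1318 higher (8.59%) and 909 lower (5.93%) at month 12. The median log2 fold change over all tested genes was 0.00. With library totals alone as the scale, the median was 0.18 and the calls split into 4823 higher and 1284 lower. Every change below is therefore read against the median gene. By comparison, 77 genes (0.502%) were called between month 6 and month 2 of CCl4, 42 higher (0.274%) and 35 lower (0.228%). Between month 12 and month 2 of oil, 11 genes (0.0717%) were called, 6 higher (0.0391%) and 5 lower (0.0326%). At an unadjusted p under 0.05 the numbers were 7131, 1395 and 1753. The comparison of months 6 and 2 shares the month 6 libraries with the main one. Those small counts moved with the method, and a fit of the compared groups only called 34 and 190. The differences between the 3 comparisons were not tested.

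Among annotated genes whose groups did not overlap, the 12 highest fold changes included female-biased liver enzymes (Cyp2a4 and Sult2a2), epithelial genes (Vil1 and Krt20) and genes known from embryonic or fetal expression (Apela and Igf2). Cyp2a4, a cytochrome P450 of steroid metabolism with female-biased expression (chr7:26307169-26315088), was measured at 0.371 to 2.55 CPM (median 2.06) at month 6 and 262 to 3087 CPM (median 1238) at month 12. The lowest month 12 mouse lay far above the highest month 6 mouse (log2 fold change 9.45, SE 0.65, adjusted p = 6.5e-13). Part of its sequence is shared with Cyp2a5, and 6.32% of its 125-base stretches occur in another gene. Vil1, which encodes villin, an actin-bundling protein of epithelial brush borders (chr1:74409376-74435559), ranged over 0.101 to 0.19 CPM (median 0.148) at month 6 and 11.6 to 187 CPM (median 23.6) at month 12, without overlap (log2 fold change 8.27, SE 1.37, adjusted p = 1.3e-05). Its level of 187 CPM in month 12 replicate 6 was the highest, and without that mouse the fold change was 6.99. Apela, a secreted ligand of the apelin receptor known from embryos (chr8:65028417-65037336), rose in all 6 month 12 mice (0 to 0.332 CPM (median 0.0166) at month 6 and 11.7 to 33 CPM (median 19) at month 12; log2 fold change 7.92). Erich4 had 0 counts over the 6 month 6 libraries and 627 over the month 12 libraries, so that, with 3 counts over the group as the floor, its level was at least 196-fold higher. Mfi2, which encodes melanotransferrin, had 3 counts at month 6 and was higher by a ratio of 223 (95% counting interval 75.9 to 1080). Rtn4r, a receptor of neurite growth inhibitors, had 1 count at month 6 and a ratio of 197 (35 to 7830). These intervals cover counting error only. Also among the highest 12 were Glod5 (7.21), Tekt5 (7.06), Krt20 (6.98), Igf2 (6.68) and Sult2a2 (6.62), all in log2 fold change.

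By the same rule, the lowest fold changes included major urinary protein genes and other male-biased genes of hepatocytes. Of 20 Mup genes tested, 19 fell and none rose, with a median log2 fold change of -3.70. Mup7 (chr4:60066469-60070475) stood at 328 to 6998 CPM (median 781) at month 6 and 2.15 to 21.7 CPM (median 9.81) at month 12, without overlap (log2 fold change -7.74, SE 0.84, adjusted p = 1.1e-08). The Mup genes are near copies of one another, with up to 86.7% of the 125-base stretches of a named member found in another gene (0.084% for Mup3), so counts cannot be assigned to 1 member with certainty. Hsd3b5, a steroid dehydrogenase of male liver (chr3:98618634-98630252), was at 3.33 to 54.1 CPM (median 15.5) at month 6 and 0.0708 to 0.515 CPM (median 0.167) at month 12 (log2 fold change -6.59, SE 0.72, adjusted p = 1.1e-08). The month 12 oil mice held 339.9 ± 60.5 CPM (mean ± SD, n = 6) and the month 2 CCl4 mice 51.2 ± 37 CPM. The month 6 mice were thus below the month 12 oil mice, and the month 12 CCl4 mice lower again, all 6 below 1 CPM. Slco1a1, an organic anion transporter of male liver (chr6:141907282-141946962), was at 42.7 to 208 CPM (median 113) at month 6 and 1.84 to 5.82 CPM (median 4.31) at month 12 (log2 fold change -4.81, SE 0.34, adjusted p = 6.8e-13). It had also been called lower between months 2 and 6 (log2 fold change -1.33, adjusted p = 0.025), and the oil mice of month 12 held 730.0 ± 102 CPM. Sult2a8, a bile acid sulfotransferase of hepatocytes, fell by 3.61 on the log2 scale.

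**Figure D1:**
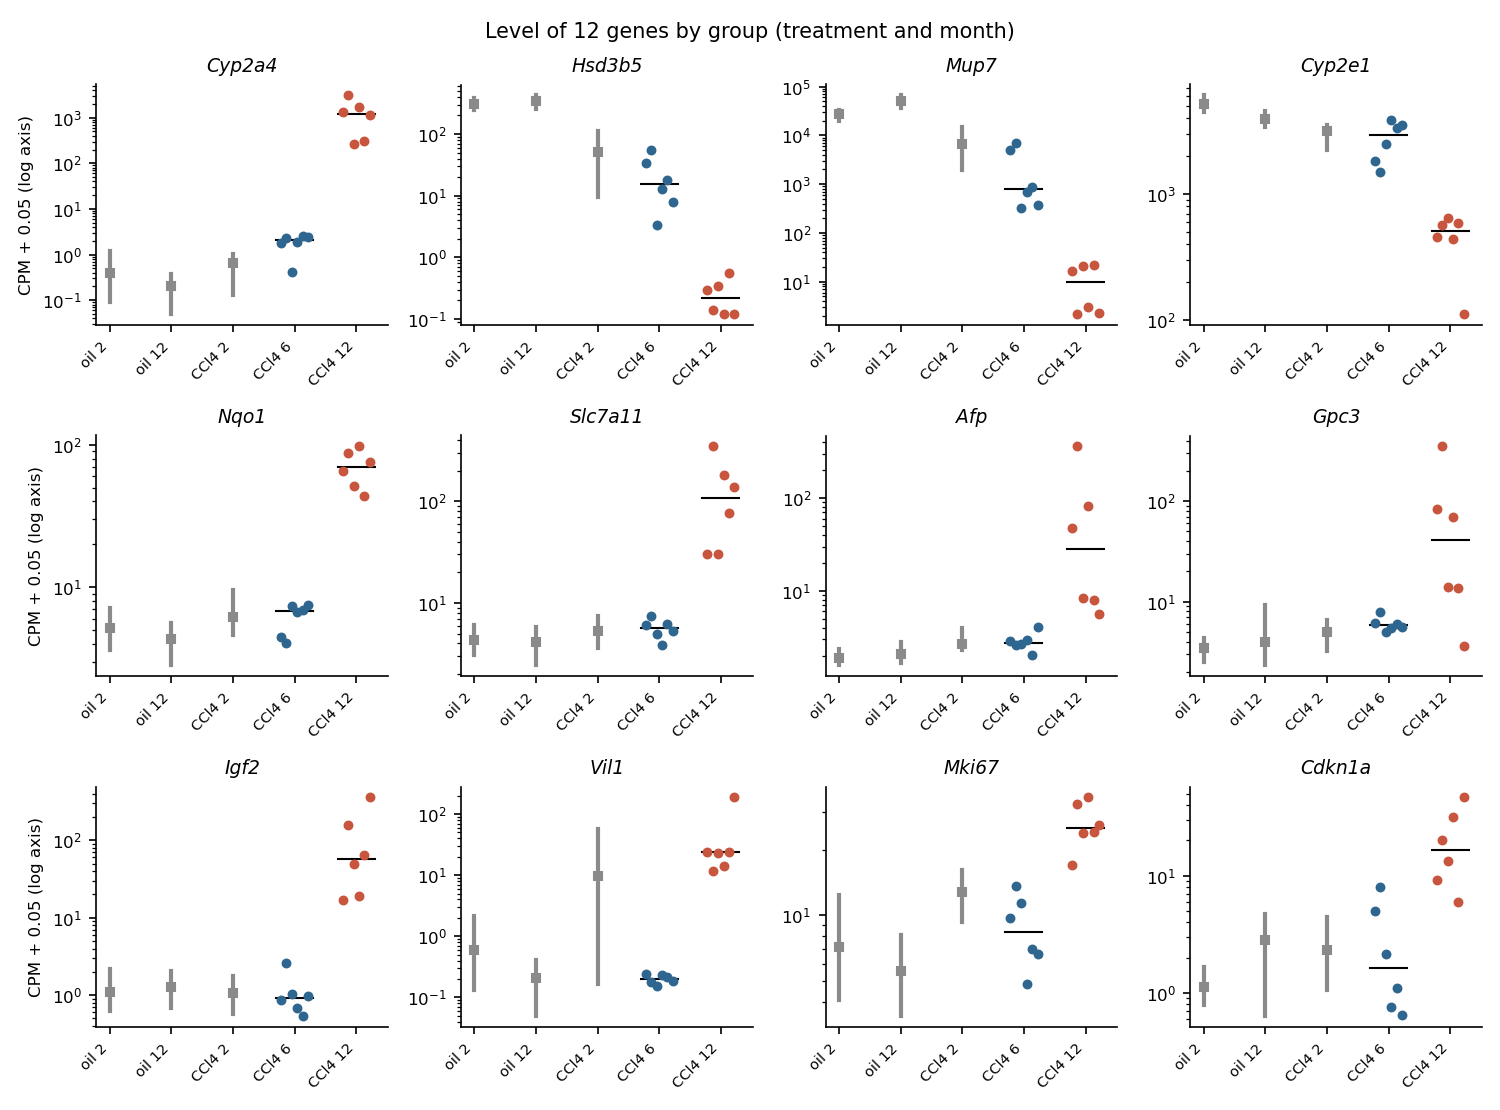
Level of 12 genes as CPM + 0.05 on a log axis, by treatment and month. Points are the 6 CCl4 mice of month 6 (blue) and of month 12 (red) with their median as a line, and grey bars and squares are the range and mean of the 6 mice of the other groups. Cyp2a4, Nqo1 and Slc7a11 separate the 2 months upward and Hsd3b5, Mup7 and Cyp2e1 downward, while Afp, Gpc3 and Igf2 spread widely among the month 12 mice.

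As a group, male-biased hepatocyte genes fell and female-biased ones rose. Of 31 male-biased genes tested, 20 were lower and 4 higher, with a median log2 fold change of -1.21. Of 30 female-biased genes, 22 were higher and none lower, with a median of 2.29. Mup3 (log2 fold change -3.99), Nudt7, a peroxisomal coenzyme A hydrolase (-2.76), and Slco1a1 had the smallest p among the male-biased genes. Bcl6, a male-biased repressor that opposes STAT5 at female-biased genes, was at 9.27 to 39.3 CPM (median 17.5) at month 6 and 4.92 to 8.89 CPM (median 5.52) at month 12 (log2 fold change -1.79, SE 0.53, adjusted p = 0.0072). All 6 month 12 mice were below all 6 month 6 mice. Cux2, a female-biased repressor of male genes, was called higher (log2 fold change 0.57, SE 0.21, adjusted p = 0.033), but its fold change was 0.26 without month 12 replicate 6 and the call was lost there (adjusted p = 0.27). The call of Cux2 was also lost without the 3 libraries that stand apart (0.13, adjusted p = 0.63) and without month 12 replicate 2 (adjusted p = 0.059). It was lost without month 6 replicate 4 (adjusted p = 0.087) or 5 (0.075), in a fit of the compared groups only (0.13) and by limma-voom (0.072). Sulfotransferases Sult2a2 (6.62) and Sult3a1 (3.98) and the P450 gene Cyp2b9 (4.38) rose on the log2 scale. The male-biased genes called higher were Cib3 (2.34), Fitm1 (2.51), Susd4 (1.18) and Serpina12 (0.94), a secreted serpin. Without the 3 libraries that stand apart 2 male-biased genes were called higher, and by limma-voom 1. Susd4 lost its call without those libraries (log2 fold change 0.43, adjusted p = 0.31), without month 12 replicate 6 alone (0.69, adjusted p = 0.056), in a fit of the compared groups only (adjusted p = 0.064) and by limma-voom (adjusted p = 0.16). Fitm1 lost it by limma-voom (adjusted p = 0.21). Susd4, a complement regulator, was at 0.902 to 1.77 CPM (median 1.44) at month 6 and 0.624 to 7.9 CPM (median 2.74) at month 12, against 32.5 ± 3.13 CPM in month 12 oil.

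Several members of the growth hormone axis fell. Ghr, the growth hormone receptor (chr15:3317760-3583492), was at 355 to 604 CPM (median 554) at month 6 and 107 to 290.0 CPM (median 167) at month 12 (log2 fold change -1.48, SE 0.19, adjusted p = 2.4e-07). Igf1, the circulating growth factor that the receptor induces (chr10:87858265-87937042), was at 470.1 to 584 CPM (median 494) at month 6 and 161 to 343 CPM (median 254) at month 12 (log2 fold change -1.07, SE 0.12, adjusted p = 3.0e-08). Igfals, which carries Igf1 in plasma, fell by 0.76. All 6 month 12 mice lay below the 6 month 6 mice for these 3 genes. For Ghr and Igf1 the log2 differences were -0.03 and -0.19 between months 2 and 6 of CCl4, and -0.09 and -0.02 between months 2 and 12 of oil, with no call. Stat5b (-0.09), the signal transducer, was not called. Of 22 genes of the axis, 7 fell and 3 rose (median log2 fold change -0.15), a share of calls of 45.5% against 39.2% of all genes. Without month 12 replicate 2, or without the 3 libraries that stand apart, 1 rose. Igfbp3, the main plasma binding protein of Igf1, was 1 of the 3. It was at 18.4 to 28.3 CPM (median 25.3) at month 6 and 14.4 to 186 CPM (median 19.4) at month 12 (log2 fold change 1.24, adjusted p = 0.014), with 186 CPM in replicate 2 and 94.1 CPM in replicate 6. Without the 3 libraries that stand apart it was called lower (log2 fold change -0.59, adjusted p = 0.0086). It was not called without replicate 2 alone (0.41, adjusted p = 0.32), with the replicate number as a block (0.82, adjusted p = 0.090), by limma-voom (0.47, adjusted p = 0.35) or in a fit of the compared groups only (adjusted p = 0.13).

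Promoters of sex-biased genes were searched for the letters TTCNNNGAA, the STAT5 consensus, which reads the same on both strands. These letters occurred in 5 of 21 female-biased genes with a promoter (23.8%), in 2 of 23 male-biased genes (8.7%) and in 9.6% of all 27025 genes with a promoter. The promoters, here and below, are those of RefSeq on build GRCm38.p6, from 250 bases before to 50 bases after the start. A match is a description of these letters and not a binding site. The female-biased A1bg, a secreted immunoglobulin-fold protein, and the male-biased Bcl6 hold the letters (capitals) in their promoter windows.
A1bg (chr15:60921306-60921394, minus strand): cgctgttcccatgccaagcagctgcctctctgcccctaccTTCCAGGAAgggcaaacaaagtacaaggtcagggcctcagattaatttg
Bcl6 (chr16:23988922-23989010, minus strand): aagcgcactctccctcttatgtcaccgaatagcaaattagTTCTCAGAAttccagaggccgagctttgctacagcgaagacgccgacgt
A1bg was higher at month 12 (0 to 0.363 CPM (median 0.0496) at month 6 and 0.0286 to 5.76 CPM (median 0.631) at month 12; log2 fold change 3.84), although the groups overlapped.

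Genes of the NRF2 pathway rose together. Of 45 NRF2 target and glutathione genes, 30 were higher and 1 lower, with a median log2 fold change of 0.98, and 24 of them separated all month 12 from all month 6 mice upward. Nqo1, a quinone reductase (chr8:107388225-107403206), was at 4.03 to 7.48 CPM (median 6.75) at month 6 and 43.6 to 97.3 CPM (median 70.1) at month 12 (log2 fold change 3.51, SE 0.22, adjusted p = 4.6e-14). Cbr3, a carbonyl reductase (chr16:93683215-93690990), was at 1.26 to 3.04 CPM (median 2.07) at month 6 and 43.7 to 98.5 CPM (median 79) at month 12 (log2 fold change 5.25, SE 0.23, adjusted p = 1.6e-17). The ranges are far apart in both cases, and its neighbour Cbr1 rose by 2.09. Month 12 oil mice held 4.26 ± 0.954 CPM of Nqo1, below the month 6 CCl4 median. Enzymes of glutathione conjugation rose, among them Gsta1 (5.00), Gstm3 (3.40) and Gpx2 (6.28), as did Gclc, the rate-limiting enzyme of glutathione synthesis (1.19), and Srxn1, which repairs oxidised peroxiredoxins (2.51), all in log2 fold change. Abcc4, an efflux pump of the basolateral membrane, was at 4.85 to 5.6 CPM (median 5.17) at month 6 and 25.7 to 139 CPM (median 51.2) at month 12 (log2 fold change 3.59). Me1, malic enzyme, fell by 0.80, and had been called higher at month 6 than at month 2 of CCl4 (adjusted p = 0.007), a comparison with the same month 6 mice. The regulators Nfe2l2 (0.18), which encodes NRF2, and Keap1 (-0.12), its inhibitor, were not called.

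The letters TGACNNNGC of the antioxidant response element occurred, on either strand, in 14 of 40 of these genes with a promoter (35%), against 14% of all genes and 16.6% of tested genes. Those letters overlap with those of the AP-1 motif. Of the 14, 6 were higher (Abcc4, G6pdx, Pgd, Srxn1, Txnrd1 and Ugdh) and Me1 was lower. Ugdh, which makes the UDP-glucuronate used in conjugation, is shown because it holds the letters on both strands.
Ugdh (chr5:65435888-65436014, minus strand): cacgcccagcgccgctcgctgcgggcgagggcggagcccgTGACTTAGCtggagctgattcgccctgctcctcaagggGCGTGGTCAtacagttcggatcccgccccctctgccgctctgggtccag
Ugdh itself was at 137 to 211 CPM (median 152) at month 6 and 229 to 446 CPM (median 299) at month 12, without overlap (log2 fold change 0.98, SE 0.14, adjusted p = 1.6e-06).

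Targets of ATF4, the factor of the amino acid and stress response, moved in the same direction. Of 22 genes, 10 were higher and none lower, with a median log2 fold change of 0.63. The 10 are 45.5%, against 20.6% of all genes called higher and 39.2% called in either direction. Slc7a11, the cystine importer shared by the ATF4 and NRF2 programmes (chr3:49892526-50443614), was at 3.85 to 7.46 CPM (median 5.67) at month 6 and 30.2 to 345 CPM (median 106) at month 12 (log2 fold change 4.56, SE 0.41, adjusted p = 2.0e-10). All 6 month 12 mice were above all month 6 mice, from 30.2 CPM in replicate 3 to 345 CPM in replicate 2. Fgf21, a liver hormone of fasting and stress (chr7:45613886-45615490), was at 0.168 to 1.33 CPM (median 0.796) at month 6 and 4.67 to 12.8 CPM (median 7.85) at month 12 (log2 fold change 3.24, SE 0.44, adjusted p = 5.9e-07). Asns, asparagine synthetase, rose by 2.46 but overlapped, and Trib3, a pseudokinase, by 1.84. Atf4 (0.15) and Ddit3 (0.31) were not called. The letters TGATGNAA of the C/EBP-ATF element occurred in 8 of 20 of the genes with a promoter (40%), against 4.5% of all genes and 3.0% of tested genes. Slc7a11 and Fgf21 hold them (capitals, either strand).
Slc7a11 (chr3:50443614-50443719, minus strand): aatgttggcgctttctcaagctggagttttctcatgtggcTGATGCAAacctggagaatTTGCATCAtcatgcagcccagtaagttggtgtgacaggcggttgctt
Fgf21 (chr7:45615582-45615669, minus strand): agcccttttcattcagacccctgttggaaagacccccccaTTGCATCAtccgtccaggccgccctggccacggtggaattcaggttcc
Chaperones of the endoplasmic reticulum were mostly not called. Of 20, 1 was higher and 5 were lower, with a median log2 fold change of -0.21, and scaling by library totals left 2 lower. Hspa5, the main one, was at -0.04.

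Cell cycle genes rose in nearly the whole list. Of 39 genes of the cell cycle and DNA replication, 34 were higher and 1 lower, with a median log2 fold change of 1.35, and 31 separated the 2 groups upward. Mki67, a marker of cycling cells (chr7:135689784-135716361), was at 4.78 to 13.6 CPM (median 8.3) at month 6 and 17.1 to 34.8 CPM (median 25.1) at month 12 (log2 fold change 1.58, SE 0.30, adjusted p = 9.8e-05). Mcm6, a subunit of the replicative helicase, was at 5.72 to 9.44 CPM (median 7.06) at month 6 and 18 to 42 CPM (median 24.2) at month 12 (log2 fold change 1.87). Cenpf (2.08), of the kinetochore, Aurka (1.73), a mitotic kinase, and Ccnb1 (2.39) and Ccnb2 (2.40), the mitotic cyclins, rose on the same scale. Levels were low in both groups, with Ccnb1 at 0.704 to 1.85 CPM (median 1.34) at month 6 and 4.51 to 10.6 CPM (median 6.37) at month 12. E2f8, a repressor of the cycle that is also high in polyploid hepatocytes, fell (log2 fold change -1.08, SE 0.32, adjusted p = 0.0066). It lost its call without the 3 libraries that stand apart (log2 fold change -0.80, adjusted p = 0.096) and without the 4 libraries highest in pancreas transcripts (-0.79, adjusted p = 0.093). Of 61 replication-dependent histone genes, 40 rose and 1 fell (median 0.86). Many of them are near copies. The letters TTTGAA of the cell cycle homology region occurred in 14 of 31 cell cycle genes with a promoter (45.2%), against 20.2% of all genes and 15.1% of tested genes, and 13 of the 14 were higher.
Ccnb2 (chr9:70421676-70421761, minus strand): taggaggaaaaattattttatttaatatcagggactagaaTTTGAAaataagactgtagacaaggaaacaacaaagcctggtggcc
Mcm2 (chr6:88898805-88898890, minus strand): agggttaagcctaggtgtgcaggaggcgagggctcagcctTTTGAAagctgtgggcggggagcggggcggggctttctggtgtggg

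Inhibitors of the cycle and p53 targets were also higher. Of 26 such genes, 16 rose and 3 fell, with a median log2 fold change of 0.58. Cdkn2b, which encodes p15 (chr4:89306299-89311039), was at 0.237 to 0.627 CPM (median 0.404) at month 6 and 1.34 to 12 CPM (median 2.41) at month 12 (log2 fold change 3.43, SE 0.47, adjusted p = 6.7e-07). Cdkn1a, which encodes p21 (chr17:29090976-29100727), was at 0.598 to 7.92 CPM (median 1.57) at month 6 and 5.92 to 46.3 CPM (median 16.6) at month 12 (log2 fold change 2.87, SE 0.56, adjusted p = 1.1e-04). The 2 groups overlapped for Cdkn1a, through month 6 replicate 2, and without the 4 pancreas-high libraries, of which it is 1, the fold change was 4.54. Phlda3, a p53 target that restrains Akt, rose by 2.89, and Bax, which promotes apoptosis, by 0.73. Cdkn2a (2.46), which encodes p16 and p19Arf, rose to 9.05 CPM in replicate 2 and to between 0.943 and 2.22 CPM in the other 5. The genes called lower were Perp (-0.51), Ei24 (-0.45) and Cdkn1b (-0.23), and the call of Cdkn1b, the p27 gene, was lost in several alternatives.

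Fetal and tumour-associated genes rose, though their highest levels fell in different mice. Of 27 such genes, 19 were higher and none lower, with a median log2 fold change of 2.28. Afp, alpha-fetoprotein (chr5:90490737-90508907), was at 1.96 to 3.99 CPM (median 2.7) at month 6 and 5.59 to 360.5 CPM (median 27.9) at month 12 (log2 fold change 4.92, SE 0.66, adjusted p = 4.6e-07). The groups did not overlap, but replicate 2 held 360.5 CPM and replicates 3, 5 and 6 held 5.59 to 8.31 CPM. Without replicate 2 the fold change was 3.43. Gpc3, a heparan sulfate proteoglycan of fetal liver (chrX:52272426-52613950), was also highest in replicate 2, with 351 CPM in replicate 2 and 3.61 CPM in replicate 6, the latter below the month 6 range of 4.95 to 7.79 CPM. Its fold change on the log2 scale was 3.90 (SE 0.60, adjusted p = 4.9e-06), or 2.63 without replicate 2. Igf2, the fetal insulin-like growth factor (chr7:142650766-142666816), was highest in replicate 6 instead (358 CPM), with 0.491 to 2.54 CPM (median 0.869) at month 6 and 16.7 to 358 CPM (median 56.9) at month 12 (log2 fold change 6.68, SE 0.63, adjusted p = 5.1e-10). Without replicate 6 the fold change was 5.83. Of its 125-base stretches 58.4% occur in another gene model. Prom1, a surface protein of progenitor and ductular cells, was at 2.03 to 2.83 CPM (median 2.24) at month 6 and 16.9 to 88.8 CPM (median 25.5) at month 12 (4.03 on the log2 scale). Scd2, a desaturase low in adult liver, was at 19.8 to 38.6 CPM (median 31.5) at month 6 and 149 to 282 CPM (median 179) at month 12 (log2 fold change 2.68), and unlike Afp it varied less than 2-fold among the 6 month 12 mice. Ly6d (4.55), Dlk1 (4.44), Golm1 (2.24) and Igf2bp3 (2.28) also rose, while Sox9 (0.72), Cd44 (0.06) and Hmga2 (-0.77) were not called.

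**Figure D2:**
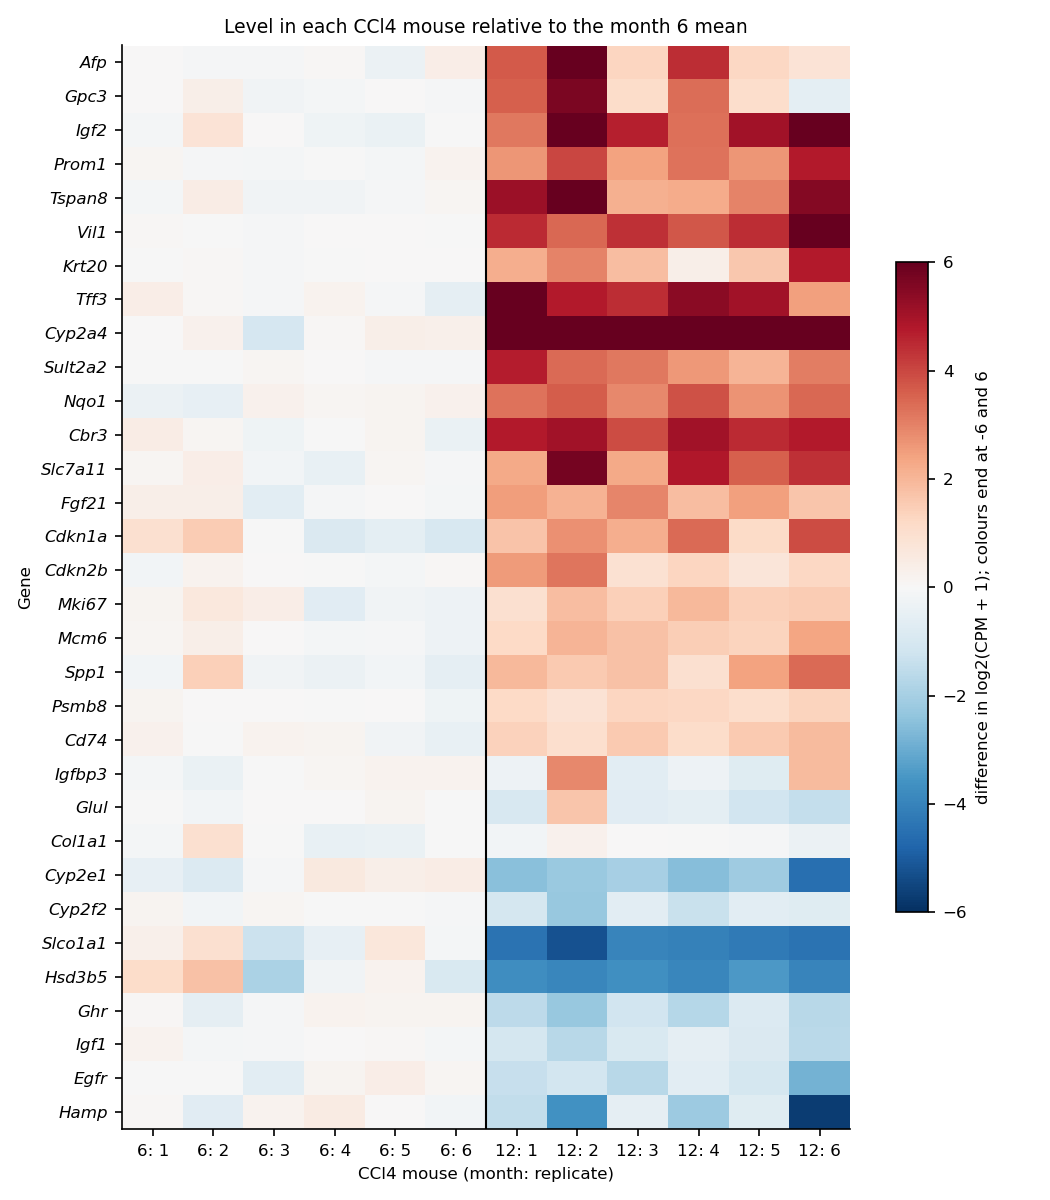
Difference in log2(CPM + 1) from the month 6 mean for 32 genes (rows) in each of the 12 CCl4 mice (columns, month and replicate), with colours ending at -6 and 6. The month 12 mice share the rise of Cyp2a4, Cbr3 and Nqo1 and the fall of Slco1a1 and Hsd3b5, and differ from each other in Afp, Gpc3, Igf2, Igfbp3 and Glul.

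Ductular and simple epithelial genes were higher, but not the bile duct keratins. Of 22 cholangiocyte and ductular markers, 15 rose and 1 fell (median log2 fold change 1.86), and their summed level went from 220.6 to 429.4 CPM at month 6 to 429.6 to 1660.8 CPM at month 12. Anxa13, an annexin of epithelial membranes (chr15:58341471-58389244), was at 0.495 to 1.33 CPM (median 1.06) at month 6 and 25.2 to 55.9 CPM (median 36.2) at month 12 (log2 fold change 5.27, SE 0.55, adjusted p = 5.2e-09). Tspan8, a tetraspanin (chr10:115816832-115849893), was at 1.44 to 2.84 CPM (median 1.62) at month 6 and 11.3 to 179 CPM (median 58.8) at month 12 (log2 fold change 5.33, SE 0.67, adjusted p = 1.5e-07). Spp1, osteopontin, rose by 2.04. It held 1068 CPM in month 12 replicate 6 and 277.9 CPM in month 6 replicate 2, the mice with the highest summed level of their groups. Krt19 (log2 fold change -0.55), a defining keratin of bile duct cells, and Krt7 (0.13) were not called, and Krt19 stood at 2.53 to 14 CPM (median 3.85) at month 6 and 2.41 to 4.65 CPM (median 3.43) at month 12. Among keratins, Krt18 (1.15) and Krt8 (1.03), which hepatocytes also express, and Krt23 (2.53) rose on the log2 scale. Tff3, a secreted trefoil peptide of mucosae (chr17:31125306-31129646), was at 0.199 to 1.33 CPM (median 0.772) at month 6 and 8.53 to 160.2 CPM (median 51.7) at month 12 (log2 fold change 6.37, SE 0.82, adjusted p = 2.3e-07). It had been called lower between months 2 and 6 of CCl4 (-3.41, adjusted p = 0.032), a comparison with the same month 6 mice. Month 2 CCl4 mice held 1.72 to 32.8 CPM of Tff3 and month 2 oil mice 0.319 to 9.32 CPM. Month 12 oil mice held 5.86 to 32.8 CPM, which overlaps the month 12 CCl4 range. Cdh17, an intestinal cadherin, reached 76.2 CPM in replicate 2 and at most 3.33 CPM in the other 5. Of 22 intestine transcripts, Vil1, Tff3, Krt20 and Cdh17 rose (13 were tested), while 11, among them Lct, Sis, Alpi, Muc2, Cdx1 and Cdx2, were under 1 CPM in all month 12 mice. One month 2 CCl4 library also held 57.3 CPM of Vil1 (group median 0.230), and the log2 difference between months 2 and 6 was -5.98. In that month 2 group, Sis, Alpi, Lct and Muc2 reached 326.3, 151.9, 40.4 and 19.5 CPM. Their group medians were 0.211, 0, 0.0187 and 0.0161 CPM. The part of intestinal tissue in the month 2 level of Vil1 was not tested.

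Zonated hepatocyte genes fell in part. Cyp2e1, the enzyme that activates CCl4 (chr7:140763739-140774987), was at 1501 to 3883 CPM (median 2933) at month 6 and 112 to 651 CPM (median 510.0) at month 12 (log2 fold change -2.57, SE 0.28, adjusted p = 1.1e-08). All month 12 mice lay below all month 6 mice, with 112 CPM in replicate 6. The level had not been called different between months 2 and 6 (-0.18) or between oil months (-0.41). Of 34 pericentral genes, 11 fell and 5 rose (median -0.40), a share of calls of 47.1% against 39.2% of all genes. Rgn, a calcium-binding lactonase, fell by 1.87. Cyp2a5, a P450 near-identical in part to Cyp2a4, rose by 2.52, and the transporters Slc13a3 and Slc22a3 by 2.20 and 2.12. Glul, glutamine synthetase of the last pericentral cells, was at 1483 CPM in replicate 2 and at 174 to 307 CPM in the other 5, against 417 to 518 CPM at month 6. Without replicate 2 the log2 fold change of Glul was -0.92 (adjusted p = 8.0e-07) in place of -0.05, and 20 pericentral genes were called lower in place of 11. Of 26 periportal genes, 14 fell and 4 rose (median -0.51), with Cyp2f2, a P450, at 583 to 739 CPM (median 642) at month 6 and 137 to 425 CPM (median 356) at month 12 (log2 fold change -1.02, SE 0.17, adjusted p = 1.5e-05), and 9 fell in a fit of the compared groups only. Cdh1 (0.86), Ctsc (0.67) and Hsd17b13 (0.81) were among those called higher.

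Most genes of amino acid and sterol metabolism fell. In the list of urea cycle and amino acid breakdown, 35 of 48 genes fell and 1 rose (median log2 fold change -0.67). Otc, of the urea cycle, was at 395 to 639 CPM (median 567) at month 6 and 103 to 364 CPM (median 279) at month 12 (log2 fold change -1.11, SE 0.20, adjusted p = 4.0e-05), and Cps1, its first enzyme, fell by 0.70. Dmgdh (log2 fold change -1.21), Ivd (-0.98) and Mccc2 (-0.86), enzymes of choline and leucine breakdown, had the smallest p in that list. Of 25 genes of cholesterol synthesis and uptake, 20 fell and none rose (median -0.85). Tm7sf2 (-1.12) and Ebp (-0.94), of the late sterol pathway, and Stard4 (-1.09), a sterol carrier, separated the groups without overlap. Hmgcs1 fell by 0.97 after a rise of 1.67 between months 2 and 6 (adjusted p = 0.024), and Lss fell by 0.79 after 1.24. Those comparisons share the month 6 mice. Without the 3 libraries that stand apart 11 of the 25 were called lower, and with library totals alone 13. The letters TCACNCCAC of the sterol regulatory element occurred in 1 of 17 of these promoters (5.9%), that of Hmgcs1, and in 1.4% of all genes.

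Lipid and bile acid genes changed in both directions. Of 30 genes of fatty acid oxidation, 12 fell and 2 rose (median log2 fold change -0.37), a share of calls of 46.7% against 39.2% of all genes. Fabp1, the fatty acid binding protein of hepatocytes, was at 3174 to 4621 CPM (median 4057) at month 6 and 302 to 1475 CPM (median 995) at month 12 (log2 fold change -2.06, SE 0.25, adjusted p = 9.2e-08). Of 27 genes of fatty acid and triglyceride synthesis, 12 fell and 7 rose (median -0.43), among the latter Scd2, Cidec, a lipid droplet protein (2.51), and Fabp4 (1.51). Scd1, the adult liver desaturase, fell by 1.02. Of 26 bile acid genes, 13 fell and 5 rose (median -0.68). Slc10a1, the bile acid importer of hepatocytes (chr12:80953183-80968705), was at 249.7 to 449 CPM (median 413) at month 6 and 54.6 to 156 CPM (median 94.6) at month 12 (log2 fold change -1.94, SE 0.20, adjusted p = 2.6e-09). The exporters Abcc4 (3.59), Abcc3 (0.98) and Slc51b (4.13) rose without overlap, and Cyp7a1, the rate-limiting enzyme of bile acid synthesis, was not called (-1.44, adjusted p = 0.089).

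Of 27 hepatocyte transcription factors, 10 fell and none rose (median log2 fold change -0.26), or 5 with library totals alone. The 10 are 37.0%, against 18.6% of all genes called lower and 39.2% called in either direction. Cebpa (log2 fold change -0.68), Nr1h4, the bile acid receptor (-0.86), and Nr3c1, the glucocorticoid receptor (-0.33; adjusted p = 0.14 with library totals alone), fell, while Hnf4a (-0.04), Foxa2 (-0.03) and Cebpb (-0.01) were not called. Secreted proteins were mixed. Alb was at 36527 to 54074 CPM (median 43245) at month 6 and 43082 to 84159 CPM (median 51844) at month 12 and was not called (adjusted p = 0.064). Ttr fell without overlap (log2 fold change -0.64, adjusted p = 5.4e-05) and Serpina1a with overlap (-0.39, adjusted p = 0.015). Apoa1 was not called (-0.06). Of 36 plasma carriers and coagulation factors, 11 fell and 4 rose (median -0.14), a share of calls of 41.7%, near the 39.2% of all genes. With library totals alone 7 fell and 10 rose. Of 22 complement genes, 11 fell and 4 rose (median -0.23), with C8a (-1.29) and C8b (-1.69), of the membrane attack complex, lower without overlap and C3 (0.82) higher. Of 27 acute phase genes, 9 rose and 6 fell (median 0.45). Lcn2, which binds bacterial siderophores, was at 6.02 to 39.5 CPM (median 10.8) at month 6 and 250.5 to 763 CPM (median 443) at month 12 (log2 fold change 4.86, SE 0.86, adjusted p = 3.5e-05), and Orm2, an orosomucoid, at 7.75 to 33.8 CPM (median 13.9) at month 6 and 112 to 378 CPM (median 296) at month 12 (log2 fold change 3.89). Saa1 (-0.40) was not called, and Serpina3k (-1.61) and Hamp, the iron hormone hepcidin (-1.65), fell. The call of Hamp was lost in a fit of the compared groups only (adjusted p = 0.059). Hamp was at 5.42 CPM in replicate 6 and 25.5 CPM in replicate 2, against 70.9 to 228 CPM in the other 4.

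**Figure D3:**
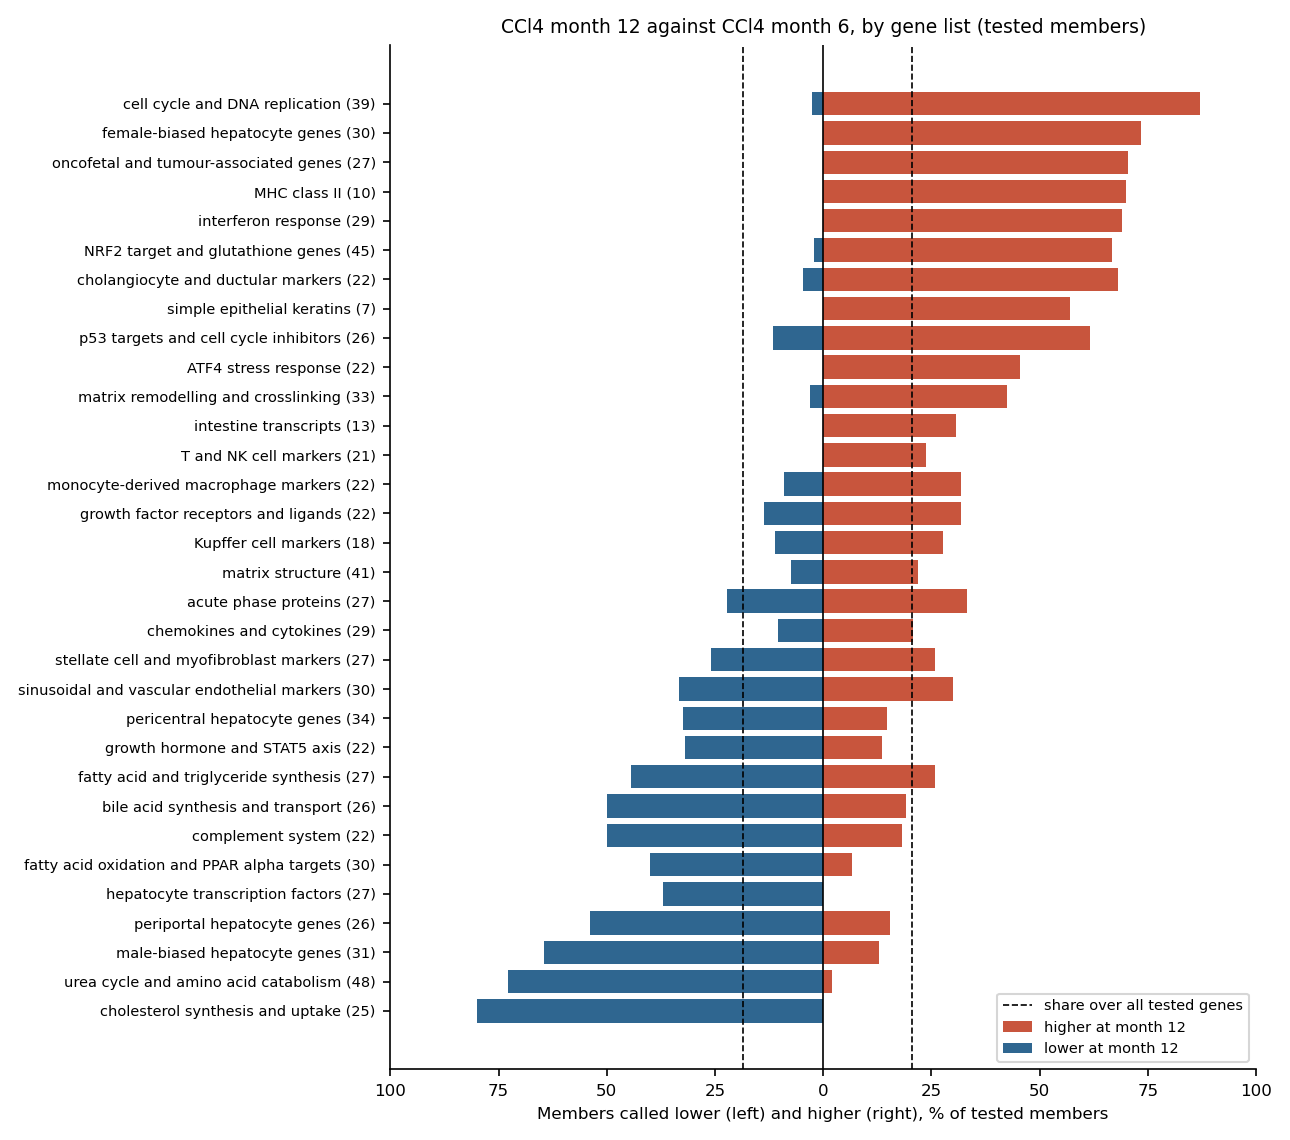
Share of the tested members of each gene list called lower (left, blue) or higher (right, red) at month 12, in percent, with the number tested in brackets. Dashed lines mark the shares over all tested genes, 18.6% lower and 20.6% higher. Cell cycle and female-biased genes reach furthest right, with 34 of 39 and 22 of 30 called higher, and cholesterol and amino acid genes furthest left.

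The fibrillar collagens of types I and III were not called different between months 6 and 12. Col1a1, of type I collagen (chr11:94936224-94953042), was at 27.7 to 77.2 CPM (median 37) at month 6 and 29.9 to 45.9 CPM (median 37.2) at month 12 (log2 fold change -0.15, SE 0.35, adjusted p = 0.78). The ranges overlapped, month 6 replicate 2 was the highest of the 12 mice, and without it the log2 fold change was 0.14. Col3a1 (-0.50), Timp1 (-0.53) and Lox (-0.04), which crosslinks collagen, were also not called. Col5a3, of the fibrillar type V collagen, was called lower (log2 fold change -0.59, adjusted p = 0.036), with overlap, and lost the call in 12 of the alternatives, among them without the 3 libraries that stand apart (adjusted p = 0.17). Of 41 matrix genes, 9 rose and 3 fell (median 0.13), a share of calls of 29.3%, below that of all genes. Without month 12 replicate 6, or month 6 replicate 3 or 5, 5 rose. Those with the smallest p belong to basement membranes. Col4a1 (chr8:11198423-11312826) was at 65.4 to 97 CPM (median 71.3) at month 6 and 141 to 309 CPM (median 182) at month 12 (log2 fold change 1.42, SE 0.18, adjusted p = 2.4e-07), its partner Col4a2 rose by 1.09, and Nid1, nidogen, by 1.75. Col18a1 fell by 0.55. Of 33 genes of matrix remodelling, 14 rose and 1 fell (median 0.25), a share of calls of 45.5% against 39.2% of all genes. Mmp7 (3.62), Mmp13 (2.48) and Pdgfb (1.83) were among those that rose. Mmp7, matrilysin, was at 0.528 to 1.47 CPM (median 0.629) at month 6 and 7.91 to 10.9 CPM (median 9.66) at month 12, a narrow range at month 12.

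Stellate cell markers split. Of 27, 7 rose and 7 fell (median log2 fold change 0.14), and their summed level was 388.7 to 457.7 CPM at month 6 and 379 to 509.9 CPM at month 12. With library totals alone, or in a fit of the compared groups only, 3 fell. Hhip, a Hedgehog-binding protein of stellate cells (chr8:79965851-80058006), was at 0.64 to 1.44 CPM (median 0.895) at month 6 and 0 to 0.144 CPM (median 0.0316) at month 12 (log2 fold change -4.42, SE 0.36, adjusted p = 2.2e-11). Its month 12 counts over the group were 7, against 160 at month 6, and it had fallen by 1.66 between months 2 and 6 (adjusted p = 8.1e-05). Month 12 oil mice held 7.31 ± 1.14 CPM. Adamtsl2 (1.60), of the matrix, rose without overlap. Acta2, actin of myofibroblasts, was called higher (log2 fold change 0.86, SE 0.30, adjusted p = 0.021), and the call was lost without month 6 replicate 5 (adjusted p = 0.054) and without the 4 pancreas-high libraries (adjusted p = 0.055).

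Antigen presentation and interferon genes rose moderately. Of 29 interferon response genes, 20 were higher and none lower (median log2 fold change 0.63). Psmb8, an immunoproteasome subunit (chr17:34197721-34201454), was at 18.7 to 25.2 CPM (median 22.4) at month 6 and 41.1 to 58 CPM (median 52.9) at month 12 (log2 fold change 1.21, SE 0.11, adjusted p = 1.9e-10), and Zbp1, a nucleic acid sensor, rose by 1.54. Of 10 genes of MHC class II, 7 were higher and none lower (median 1.19). Cd74, the invariant chain, was at 67.7 to 112 CPM (median 96.6) at month 6 and 183 to 345 CPM (median 257) at month 12 (log2 fold change 1.44, SE 0.23, adjusted p = 9.5e-06), and H2-DMb1 (1.25) and H2-DMa (1.14), which load peptides, rose with it. The 2 months did not overlap for these 5 genes. The letters GAAA, any 2 bases and GAAA again, from the interferon-stimulated response element, occurred on either strand in 11 of 22 interferon genes with a promoter (50.0%) and in 4.0% of all genes. Oas1a, an antiviral synthetase, and Gbp3, a guanylate-binding protein, each hold 2 overlapping matches.
Oas1a (chr5:120907526-120907585, minus strand): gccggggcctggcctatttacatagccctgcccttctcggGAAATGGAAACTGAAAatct
Gbp3 (chr3:142559959-142560043, plus strand): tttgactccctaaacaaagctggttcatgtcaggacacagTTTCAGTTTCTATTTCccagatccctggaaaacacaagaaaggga
Oas1a was at 6.38 to 11.6 CPM (median 7.5) at month 6 and 12.3 to 16.6 CPM (median 13.8) at month 12 (log2 fold change 0.81), and Gbp3 rose by 0.70.

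Few markers of neutrophils and B cells were called, and those of macrophages and Kupffer cells were called in shares near that of all genes (40.9% and 38.9%, against 39.2%). Of 22 markers of monocyte-derived macrophages, 7 rose and 2 fell (median log2 fold change 0.40), and 11 rose without month 6 replicate 2. Cd63 (1.88), Cd9 (1.87) and Lpl (1.23) led, and Trem2, a receptor of lipid-handling macrophages, was not called (9.64 to 23.9 CPM (median 11.8) at month 6 and 8.83 to 13 CPM (median 11.4) at month 12; -0.34). Cd63 and Cd9 are tetraspanins and Lpl a lipase that other liver cells also express. Gpnmb (-0.99) and Itgam (-1.36) were called lower, and neither without the 3 libraries that stand apart (adjusted p = 0.30 and 0.17). Gpnmb also lost its call without month 6 replicate 2 (adjusted p = 0.11) or 3 (0.052), or month 12 replicate 3 (0.063) or 6 (0.084). Of 18 Kupffer cell markers, 5 rose and 2 fell (median 0.28), and 9 rose without those libraries. C1qa and C1qc, of complement C1q, rose by 0.73 and 0.69, while Clec4f, a defining marker, was not called (0.29). The 2 called lower were Paqr9 (-1.69), without overlap, and Hpgd (-0.64). Hpgd lost its call without the 3 libraries that stand apart (adjusted p = 0.051) and with library totals alone (adjusted p = 0.053). Of 21 T and NK cell markers, 5 rose (Cd247, 1.24, Gzmb, 1.19, and Il2rb, 0.89, among them) and none fell. That is 23.8%, against 20.6% of all genes called higher. Of these markers 3 rose without month 12 replicate 6 or month 6 replicate 6, and 1 without the 3 libraries. Cd3e was at 0.148 to 0.674 CPM (median 0.312) at month 6 and 0.451 to 0.744 CPM (median 0.551) at month 12 (not called). Among 14 neutrophil and 14 B cell markers 2 and 1 were called, all lower. Of 29 chemokines and cytokines, 6 rose and 3 fell, a share of calls below the 39.2% of all genes. Ccl20 (4.98) and Cx3cl1 (1.94) were among those that rose, with Cxcl12, a homing signal of stromal cells, at -0.72.

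Endothelial genes moved in both directions. Of 30, 9 rose and 10 fell (median log2 fold change -0.11), or 5 and 4 without the 3 libraries that stand apart. Emcn, a vascular sialomucin, was at 3.48 to 4.77 CPM (median 4.02) at month 6 and 5.79 to 17.5 CPM (median 7.81) at month 12 (log2 fold change 1.19, SE 0.17, adjusted p = 2.1e-06). Flt4 (1.11) and Pecam1 (0.61) also rose without overlap. Stab2, the scavenger receptor of sinusoids, was not called (-0.21), and Clec4g (-0.52), Dnase1l3 (-0.68) and Wnt2 (-0.85), the last a signal of central vein endothelium, fell. Among growth factors, Egfr, the EGF receptor of hepatocytes (chr11:16752203-16918158), was at 573 to 1162 CPM (median 911) at month 6 and 124 to 571 CPM (median 369) at month 12 (log2 fold change -1.33, SE 0.25, adjusted p = 6.6e-05), while its ligands Btc (2.39), Hbegf (1.25) and Tgfa (0.88) rose. The month 12 mice were all below the month 6 mice for Egfr and all above them for Btc and Tgfa. Of 22 receptors and ligands, 7 rose and 3 fell (median -0.02), a share of calls of 45.5% against 39.2% of all genes.

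Levels also differed by chromosome. For each mouse, the median of 9565 genes of at least 5 CPM was taken per chromosome, as log2 of CPM + 0.5 relative to each gene's mean over all mice and to the mouse's genome median. This comparison was chosen after the values were seen. Over the autosomes, the 30 mice of the other groups lay between -0.087 and 0.096, and the month 12 CCl4 mice between -0.33 and 0.42. Between months 12 and 6, chromosomes 15 (0.26), 1 (0.23) and 17 (0.15) were higher and chromosomes 9 (-0.23), 12 (-0.20), 13 (-0.17), 4 (-0.096), 14 (-0.093), 10 (-0.073) and Y (-0.78) lower, in difference of means. In an exact two-sided permutation test, the adjusted p over 21 chromosomes was 0.0091 for chromosomes 1, 9, 12, 15 and Y, whose groups did not overlap and which gave the smallest p that 6 against 6 allows (0.0022), and 0.036 for the other 5. On chromosome 1, 37.2% of tested genes were called higher and 5.96% lower, and on chromosome 9, 12.9% and 37.1%. On chromosome 15 the shares were 41.7% and 6.71%. On chromosome 1 the genes nearer the first and nearer the last base gave 0.229 and 0.231, and on chromosome 9 -0.235 and -0.234. Such values lay further apart elsewhere, as on chromosomes 4 (-0.136 and -0.0594), 10 (-0.0441 and -0.0946) and 14 (-0.129 and -0.0631). On chromosome 19, which was not called, they had opposite signs (0.0553 and -0.0341). Chromosomes 10 and 14 lost their call over genes of at least 20 CPM, chromosomes 13, 14 and 17 with base composition centred, and chromosome 10 without the genes of the lists (adjusted p = 0.079). Chromosome 11 was called higher over genes of at least 20 CPM (0.10, adjusted p = 0.026). Chromosome Y rested on 5 genes, and its genes Kdm5d (-0.62), Ddx3y (-0.84), Uty (-0.61) and Eif2s3y (-0.87) were all lower on the log2 scale. Ddx3y was at 105 to 120.2 CPM (median 111) at month 6 and 20 to 87.9 CPM (median 63) at month 12, with the lowest value in replicate 6. DNA was not measured here, and copy number was not tested.

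**Figure D4:**
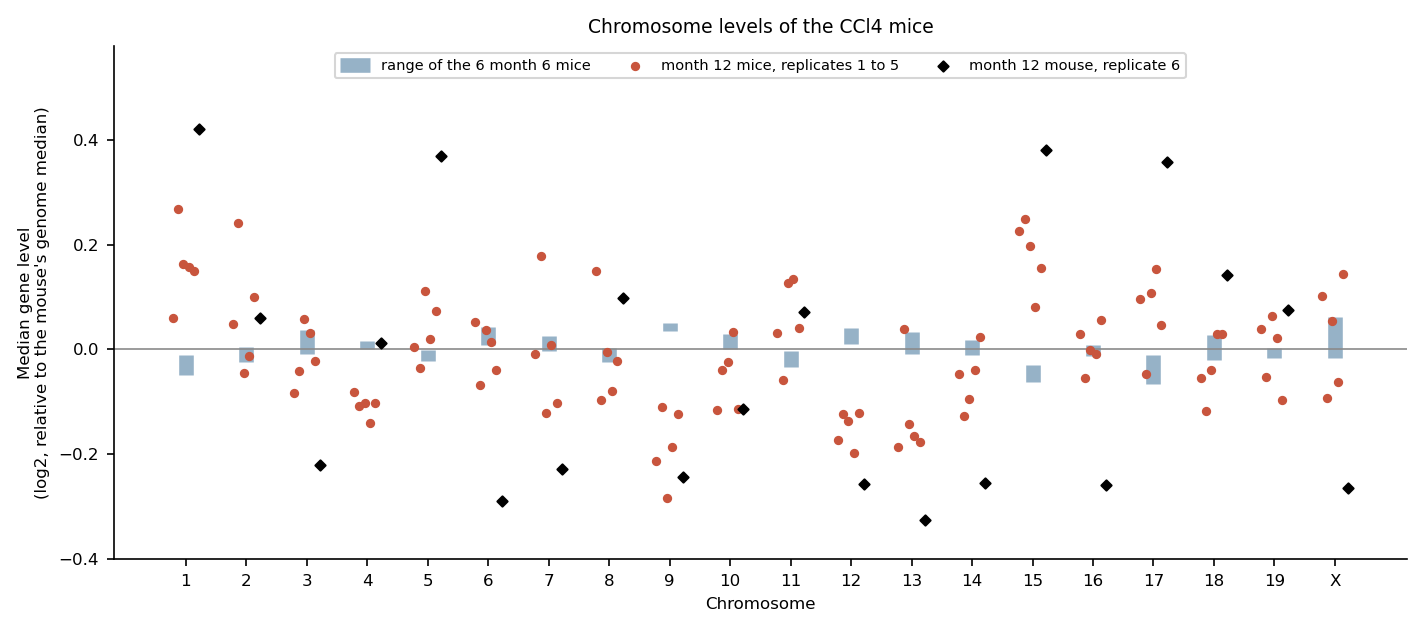
Median gene level per chromosome on a log2 scale, relative to the genome median of the mouse, for chromosomes 1 to 19 and X. Blue bars are the range of the 6 month 6 CCl4 mice, red points month 12 replicates 1 to 5 and black diamonds month 12 replicate 6. The month 6 mice stay near 0, and the month 12 mice lie above them on chromosomes 1 and 15 and below them on 9 and 12.

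Transcripts of neighbouring tissues were measured beside these results. None of 21 pancreas genes was called, and the amylase genes, near copies of each other, had the widest spread among mice, with Amy2a5 at 0.371 to 3610.3 CPM (median 125) at month 6 and 0.85 to 1205 CPM (median 288) at month 12. Mesothelial markers summed to 208.6 to 280.6 CPM at month 6 and 72.4 to 211.1 CPM at month 12, with 3 of 12 called, all lower. The largest member was Dpp4, with means of 159.6 and 109.3 CPM, so the sum follows this gene more than the others. In month 12 replicate 6 the sum was 169.8 CPM with Dpp4 at 155.8 CPM, while Msln and Upk3b were at 0.354 and 0.460 CPM. None of 14 skeletal muscle and none of 13 mitochondrial-encoded genes was called. Leaving out the 4 libraries highest in pancreas transcripts gave 5706 calls, of which 4862 were shared with the 6007. The part of these tissues in the other results was not tested. Genes named here as further members of a list, outside the rule for naming, were chosen after their values were seen.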

How the data were processed

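The authors mapped the reads with Biojupies, per the labels' protocols, and deposited raw counts per gene symbol, which were used as deposited. The submitters' processing notes name mm10, edgeR 3.30.3 and limma 3.44.3. The annotation and the strand setting of the counting are not given in the sources used here. All 36 libraries were fitted with 1 mean per group in edgeR 4.0.16 (R 4.3.3; TMM scaling, filterByExpr, quasi-likelihood test, 30 residual degrees of freedom), with Benjamini-Hochberg adjustment over 15338 genes. Alternatives used DESeq2 1.42.0, limma 3.58.1 (voom), other scalings and filters, a replicate block and libraries left out. The test was checked on simulated data. No pair of libraries of a group agreed within sampling noise (chi-square per degree of freedom 24.6 to 224 over 30 pairs). Positions come from GENCODE vM21 (mm10) by symbol, for 167 of 168 genes named by rule.

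Genes were named by rule: the 12 highest and 12 lowest fold changes among called genes of at least 1 CPM in the higher group whose groups did not overlap (predicted genes and pseudogenes left out), a panel of 30 genes, per list the 3 called members with the smallest p and up to 3 called against its median, the 6 most variable genes of month 12, and the 5 highest and 5 lowest not called in oil. The rule, the lists and the comparison were chosen with earlier results of these data known. Some genes that the rule names are not reported here, and they stay in the fit and in the counts of the lists.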

Additional observations from a re-analysis of the deposited data

Results flagged for a closer look

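In each group of 6 mice, the highest or lowest mouse was compared with its nearest neighbour, as the gap between them divided by the whole range of log2(CPM + 1). Chance alone marks about 1 in 20 groups in this way, and 168 genes and the chromosome levels were examined in both months. No explanation was tested for any of them.

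Month 6 replicate 2 was the mouse apart most often. It was high for Cd163 (0.660 of the range), Cd63 (0.723), Col1a1 (0.686), Col4a1 (0.647), Igf2 (0.674), Krt18 (0.670), Krt19 (0.647), Nid1 (0.762), Spp1 (0.808) and Timp1 (0.711), and low for Angptl6 (0.851), Cib3 (0.844), Ei24 (0.757) and Hsd17b13 (0.629). Elsewhere at month 6, Aurka was high in replicate 1 (0.729), Cyp2a4 low in replicate 3 (0.734) and the level of chromosome Y low in replicate 3 (0.657).

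Month 12 replicate 6 was high for Adamtsl2 (0.633), Lpl (0.704), Vil1 (0.743) and the level of chromosome 5 (0.640). It was low for Amy2a5 (0.626), Cyp2e1 (0.776), Gpnmb (0.673), Rgn (0.668) and the levels of chromosomes 6 (0.649), 16 (0.650) and Y (0.836). Month 12 replicate 2 was high for Bax (0.628), Glul (0.737) and Slc13a3 (0.731) and low for Crp (0.808), Cxcl12 (0.634) and Slco1a1 (0.626).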

How the results depend on the processing

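The count of 6007 genes called between months 12 and 6 lay within 1.5 times of itself in total under all 22 alternatives (4655 to 6271), but scaling by library totals alone gave 4823 higher and 1284 lower in place of 3160 and 2847. Leaving out single mice gave 5463 to 6271. The 11 genes of the oil comparison became 140 with DESeq2 (70 higher, 70 lower), 26 with the 1 CPM filter (14 and 12), 190 in the compared groups only (82 and 108), 183 with totals alone (19 and 164), 17 with limma-voom (9 lower), 9 lower with RLE size factors and 4 to 28 without single mice (1 to 18 higher, 2 to 11 lower). The 77 genes of months 6 and 2 of CCl4 became 119 with DESeq2 (75 higher), 34 in the compared groups only (24 and 10), 38 with limma-voom (26 and 12) and 12 to 111 without single mice (9 to 62 higher, 3 to 53 lower).

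Of 147 named genes called, 127 kept the call under all 22 alternatives and 20 lost it in at least 1. The only called gene to reverse was Igfbp3 (1.24), at -0.595 on the log2 scale without the 3 libraries that stand apart. The other reversals concern genes near 0 or spread widely among mice, none of them called. Without those 3 libraries, Col1a1 was at 0.121, Krt19 at 0.15, Lox at 0.382, Saa1 at 0.148, Timp1 at 0.0321 and Trem2 at 0.0111. Without the 4 pancreas-high libraries, Amy2a1 was at 1.49, Amy2a2, Amy2a3 and Amy2a4 at 1.4, Amy2a5 at 1.42, Col1a1 at 0.172, Glul at 0.179, Lox at 0.669, Saa1 at 0.152 and Timp1 at 0.397. With totals alone, Col1a1 was at 0.023, Glul and Hnf4a at 0.141 and Lox at 0.126. With limma-voom, Amy2a1 was at 2.01, Amy2a2, Amy2a3 and Amy2a4 at 0.852, Amy2a5 at 1.07 and Lox at 0.219. Without single mice the ranges were -1.3 to 0.839 for Amy2a1, -1.34 to 0.752 for Amy2a2, Amy2a3 and Amy2a4, -1.29 to 0.869 for Amy2a5, -0.189 to 0.343 for Cd163, -0.238 to 0.143 for Col1a1, -0.924 to 0.127 for Glul, -0.0889 to 0.00767 for Hnf4a, -0.692 to 0.0294 for Krt19, -0.22 to 0.443 for Lox, -0.417 to 1.47 for Prss2 and -0.705 to 0.251 for Timp1. The level of chromosome 8 was at -0.00323 over genes of at least 20 CPM and -0.00293 with base composition centred, and that of chromosome 19 at -0.00281 and -0.00271. The cause of these changes was not tested.

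No pairing of the samples by replicate number was seen: 2 of 6 mice correlated best with their own number. The correlations of like numbers were weak (-0.27 to 0.24) and cannot exclude a shared batch. With the replicate number as a block, 5926 genes were called, 19 between oil months (10 higher, 9 lower) and 50 between months 6 and 2 of CCl4 (18 lower). Lox was at 0.0848 with the block. Alternatives that left out 3 or 4 libraries, and those of the chromosome levels, were chosen after seeing the data. Simulated counts with known changes gave calls for 77% of 2-fold and 86.9% of 4-fold changes in the comparison of months 12 and 6 over 15093 genes. Of the simulated calls, 3.55% were genes without a change. Few genes were changed there, as many up as down, unlike in the data. The simulation therefore cannot speak to the scaling or to mice that stand apart.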

Other observations

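Further lists are set here beside the 39.2% of all tested genes that were called. Of 20 annexin and S100 genes, which bind calcium and membranes, 7 were higher and 4 lower (55%; median log2 fold change 0.01). Anxa5 (1.15), Anxa4 (0.87) and S100a11 (1.46) separated the 2 months without overlap, as did S100a13 downward (-0.62). Of 28 genes of the Hippo, Notch and Wnt pathways, 8 were higher and 2 lower (35.7%; median 0.22), and 5 were higher without the 3 libraries that stand apart. Ctgf, a matricellular YAP target, was at 6.04 to 14.3 CPM (median 8.25) at month 6 and 17.2 to 38.9 CPM (median 27.1) at month 12 (log2 fold change 1.66), and Ankrd1, another YAP target, rose by 2.32, while Yap1 itself was at -0.26.

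Of 30 genes of glucose metabolism, 8 were higher and 4 lower (40%, near the share of all genes; median log2 fold change -0.02). Hk2, the hexokinase of muscle and growing cells, was at 4.26 to 9.31 CPM (median 5.75) at month 6 and 9.42 to 27 CPM (median 14.1) at month 12 (log2 fold change 1.33), and Pkm, the pyruvate kinase outside adult liver, rose by 0.66. Pygl, liver glycogen phosphorylase (-0.78), and Gys2, liver glycogen synthase (-0.83), fell. The count lower was 9 without the 4 pancreas-high libraries and 7 without month 6 replicate 2. Of 18 clock genes, 3 were lower and none higher (16.7%, below the share of all genes; median -0.64), and 10 were lower without the 4 pancreas-high libraries. Those libraries include month 6 replicates 1 and 2, with Dbp at 4.23 and 1.95 CPM. The other month 6 mice held 36.2 to 106.3 CPM of Dbp. The part of this clock difference in the count of 10 was not tested. Among 18 immediate early genes, 3 were higher and 1 lower (22.2%, median 0.00). Ier3 (2.03), Btg2 (0.92) and Klf6 (0.79) rose with overlap, and Zfp36, which destabilises cytokine mRNA, fell without overlap (-1.08). Myc (1.23) was not called (adjusted p = 0.059), although its groups did not overlap. These genes were chosen for naming after their values were seen.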
